A study of Mus musculus with 12 samples.

Results

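Committed oligodendrocyte precursors are cells that have left the proliferating precursor state and have not yet made myelin. The 9 genes followed here, Neu4, Gpr17, Bcas1, Enpp6, Bmp4, Tnr, Itpr2, Elmo1 and Qpct, are used as markers of this stage, and they were 9 of the 50600 genes in the deposited mouse count table. They were chosen by name as a stage-specific list, and also by their measured levels, since earlier results on these same libraries were known at the time. Their levels across the cell types are therefore given as a description, without p-values.

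In the adult brain, oligodendrocyte precursor cells carry the PDGF receptor alpha and the NG2 proteoglycan. Cells that commit to differentiation lower these, pass through a short stage marked by GPR17, BCAS1 and ENPP6, and then either die or go on to wrap axons. The antibodies O4 and O1 see glycolipids that accumulate over the same period. O4 binds sulfatide and labels cells from the late precursor stage onwards, and O1 binds galactocerebroside in cells that are further along.

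The dentate gyrus, the part of the hippocampus in which new neurons are born in adults, was dissected from Nestin-GFP mice of 6 to 9 weeks. These animals express green fluorescent protein under control elements of the gene for nestin, an intermediate filament of neural stem and progenitor cells, and all 3 groups came from mice of this line. Live cells were sorted after removal of cells positive for CD31, CD45, O1 or O4, so that endothelial cells, immune cells and O4- or O1-positive oligodendroglia were gated out. Cells with both GLAST and GFP were collected as stem cells, cells with GFP and no GLAST as progenitors, and cells with GLAST and no GFP as astrocytes. Each library was amplified with the SMARTer v4 kit from 50 cells, and there were 4 libraries per cell type, described by the study as biological replicates. The stem cell libraries carry numbers 1 to 4. The astrocyte and progenitor columns carry no replicate number and are lettered a to d here as names only.

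The libraries held 5357232 to 6253680 counts in astrocytes, 9041498 to 12535028 in progenitors and 5031166 to 10435711 in stem cells. Levels are given in CPM, the reads of a gene over the library total expressed per 1000000, with library sizes scaled by the trimmed mean of M-values (TMM). A count of 3 in a library was taken as the floor of detection, and intervals on ratios of counts cover counting error only. The sorted cell types were also read through marker genes outside the oligodendrocyte lineage. Summed levels of 7 astrocyte markers were 13387 to 17383 CPM in astrocytes, 5982 to 7842 CPM in progenitors and 19453 to 26271 CPM in stem cells. Summed levels of 8 neuronal lineage markers were 1424 to 2084 CPM in progenitors, 43.3 to 692 CPM in astrocytes and 40.8 to 65.0 CPM in stem cells. Slc1a3, which encodes the sort antigen GLAST, averaged 2782 CPM in progenitors against 7916 CPM in stem cells. Nes, the gene whose control elements drive the reporter, had 0 counts in astrocytes, 291, 1, 62 and 163 counts in progenitors a to d, and 4 counts in stem cell 2 alone among stem cells. Ptprc, which encodes CD45, had 0 counts in every library, and Pecam1, which encodes CD31, averaged 1.93 CPM or less. Microglial markers summed to 33.6 to 284 CPM, and endothelial markers to 7.70 CPM or less except for 130 CPM in stem cell 2. In such bulk libraries, fewer cells of a type and less RNA per cell cannot be told apart.

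The promoters of the members are shown first, because the members that rose together in progenitors can then be read against the sequence upstream of each. Each sequence is the 250 bases before and 50 bases after a RefSeq transcription start in GRCm38.p6, written 5′ to 3′ on the strand of the gene. Entries were found for 6 of the 9 members, giving 7 promoters. Gpr17, Bcas1 and Qpct had no entry. Capitals mark matches, on either strand, to the SOX core ACAAAG or ACAATG, the E-box CAGCTG or CATCTG, the MYRF core CTGGCAC or CTGGTAC, or TATAAA. The 4 printed here are Neu4, Tnr and the downstream promoter of Elmo1, which are starts of genes high in progenitors, and Itpr2, which was high in all 3 cell types. The promoters of Bmp4 and Enpp6 and the upstream promoter of Elmo1 are not printed. Counts per gene do not show which Elmo1 start was used.
Neu4, chr1:94020243-94020542, plus strand: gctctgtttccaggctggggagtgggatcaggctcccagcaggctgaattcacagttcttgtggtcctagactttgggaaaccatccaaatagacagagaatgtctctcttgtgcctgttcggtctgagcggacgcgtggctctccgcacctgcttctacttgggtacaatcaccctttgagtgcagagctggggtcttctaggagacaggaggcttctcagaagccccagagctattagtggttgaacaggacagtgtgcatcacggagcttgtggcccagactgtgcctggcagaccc
Tnr, chr1:159523519-159523818, plus strand: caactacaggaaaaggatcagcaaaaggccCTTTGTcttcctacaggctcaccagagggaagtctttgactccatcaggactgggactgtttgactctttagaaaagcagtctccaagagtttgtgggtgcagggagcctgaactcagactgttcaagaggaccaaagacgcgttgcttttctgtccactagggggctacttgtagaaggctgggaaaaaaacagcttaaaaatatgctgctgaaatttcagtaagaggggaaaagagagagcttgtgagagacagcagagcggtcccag
Elmo1 downstream start, chr13:20472740-20473039, plus strand: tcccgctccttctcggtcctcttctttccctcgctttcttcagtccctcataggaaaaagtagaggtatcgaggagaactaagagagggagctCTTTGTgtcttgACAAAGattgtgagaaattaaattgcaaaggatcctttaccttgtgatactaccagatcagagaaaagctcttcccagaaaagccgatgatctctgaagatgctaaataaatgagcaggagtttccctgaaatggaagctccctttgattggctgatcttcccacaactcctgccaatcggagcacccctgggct
Itpr2, chr6:146502174-146502473, minus strand: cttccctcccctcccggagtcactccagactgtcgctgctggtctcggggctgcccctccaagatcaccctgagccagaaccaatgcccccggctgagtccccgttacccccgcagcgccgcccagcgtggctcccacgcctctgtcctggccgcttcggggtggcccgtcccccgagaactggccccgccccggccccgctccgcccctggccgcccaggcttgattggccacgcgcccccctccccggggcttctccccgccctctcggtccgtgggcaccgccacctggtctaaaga

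The Tnr promoter held 1 SOX match, 220 to 215 bases before the start, and the downstream Elmo1 promoter held 2, of which the nearer lay 145 to 140 bases before the start. The Enpp6 promoter also held 1 SOX match, and the upstream Elmo1 promoter held 1 match to TATAAA. No match of any kind was present in the windows of Neu4, Bmp4 and Itpr2. Of 32851 promoters of the same length, 28.6% held a SOX match, 30.6% an E-box match, 7.10% a MYRF match and 13.6% TATAAA. The windows differed in composition, with G and C making up 73.3% of the Itpr2 promoter, 64.0% of Bmp4, 55.3% of Neu4, 48.0% of Tnr and 46.0% of the downstream Elmo1 promoter, where the median of all promoters was 52.7%.

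GPR17 is an orphan receptor related to the P2Y purinergic and cysteinyl leukotriene receptors, and it marks precursors at the point of commitment. Gpr17 (ENSMUSG00000052229.5, chromosome 18, 31942997 to 31949636, minus strand) stood at 206, 193, 487 and 400 CPM in progenitors a to d. It was at 0.213, 0.183, 0 and 1.02 CPM in astrocytes a to d, and at 0.103, 5.47, 16.1 and 1.11 CPM in stem cells 1 to 4. All 4 progenitor libraries were above all 8 others, and stem cell 3 was the highest of those 8. The log2 fold change of progenitors over stem cells was 5.77 ± 1.04 (SE, n = 4 against 4) and that of astrocytes over progenitors was -9.78 ± 0.96. These moved to 7.14 without stem cell 3 and to -11.12 without astrocyte d. Per scaled library size, progenitors held 894 times the Gpr17 counts of astrocytes, with a 95% interval of 434 to 2224. The counting ignored strand, and 3.62% of Gpr17's exonic length overlaps exons of Lims2 on the opposite strand, so reads there cannot be told apart.

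BMP4 is a secreted ligand of the bone morphogenetic protein family that is made by differentiating precursors. Bmp4 (ENSMUSG00000021835.14, chromosome 14, 46383520 to 46390669, minus strand) had 0 counts in all astrocyte and stem cell libraries. Progenitors a to d held 21, 61, 144 and 419 counts, or 1.44, 5.10, 13.3 and 36.0 CPM. Every progenitor library was above the floor, and none of the other 8 held a single read. Progenitors were at least 23.4-fold higher than astrocytes and at least 34.3-fold higher than stem cells, taking 3 counts in each library of the group at 0. Without progenitor d these bounds were 11.1-fold and 16.2-fold. The spread inside the progenitors was wide, with the highest library 25.0 times the lowest. The edgeR call of Bmp4 against astrocytes, counted with the others further on, was lost without progenitor b, c or d.

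Tenascin R is a glycoprotein of the extracellular matrix made by cells of the oligodendrocyte lineage and by some neurons. Tnr (ENSMUSG00000015829.13, chromosome 1, 159523769 to 159931729, plus strand) stood at 146, 212, 279 and 299 CPM in progenitors a to d. Astrocytes a to d were at 12.8, 57.5, 0.593 and 2.45 CPM, and stem cells 1 to 4 at 2.36, 0.130, 0.625 and 10.6 CPM. The progenitor libraries did not overlap with either other cell type, and astrocyte b was the nearest. The log2 fold change of progenitors over stem cells was 6.11 ± 0.98 (SE, n = 4 against 4), and 7.70 without stem cell 4. Astrocytes over progenitors came to -3.67 ± 1.14, which moved to -5.51 without astrocyte b.

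NEU4 is a sialidase, which removes sialic acid from glycolipids and glycoproteins. Neu4 (ENSMUSG00000034000.15, chromosome 1, 94020451 to 94028334, plus strand) stood at 207, 212, 356 and 342 CPM in progenitors a to d. Astrocytes a to d were at 0.852, 0.365, 0.593 and 0.204 CPM, and stem cells 1 to 4 at 0.308, 0.652, 18.5 and 0.557 CPM. The progenitors, at 279 ± 80.9 CPM (SD, n = 4), stood clear of all other libraries, and stem cell 3 stood clear of the other 3 stem cell libraries. The log2 fold change of progenitors over stem cells was 5.75 ± 1.17 (SE) and rose to 9.08 when stem cell 3 was left out. Astrocytes over progenitors came to -9.09 ± 0.64, with 550 times as many scaled counts in progenitors (95% interval 299 to 1147).

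Glutaminyl-peptide cyclotransferase, the product of Qpct, converts glutamine at the start of peptides to pyroglutamate. Qpct (ENSMUSG00000024084.7, chromosome 17, 79051906 to 79090378, plus strand) stood at 199, 165, 351 and 300 CPM in progenitors a to d. Astrocytes a to d were at 0.213, 0.548, 0.198 and 0 CPM and stem cells 1 to 4 at 0.103, 0.261, 0 and 0 CPM. The gene was close to absent outside the progenitors, with 3 counts over the 4 stem cell libraries together. Progenitors held 2550 times the scaled counts of stem cells (95% interval 872 to 12367) and 1000 times those of astrocytes (428 to 3080). The log2 fold changes were 11.15 ± 0.60 for progenitors over stem cells and -9.94 ± 0.84 for astrocytes over progenitors (SE, n = 4 against 4). Over the other settings the former ran from 7.87 to 11.35, and it was 12.14 without stem cell 2.

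ENPP6 is a choline phosphodiesterase whose messenger RNA is used to find newly forming oligodendrocytes. Enpp6 (ENSMUSG00000038173.15, chromosome 8, 46986887 to 47096762, plus strand) had 0 counts in 11 of the 12 libraries, all 4 progenitor libraries among them. The exception was stem cell 4, with 7 counts or 1.30 CPM. In the progenitors the floor of 3 counts was at most 0.277 CPM. Enpp6 thus went against the label, as Itpr2 and in part Bcas1 did in other ways, since its transcript was not detectable at this depth in the group where the others were high.

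BCAS1 is a myelin-associated protein that marks newly formed oligodendrocytes. Bcas1 (ENSMUSG00000013523.13, chromosome 2, 170346991 to 170427845, minus strand) stood at 65.6, 61.9, 118 and 118 CPM in progenitors a to d. Astrocytes a to d were at 14.9, 127, 113 and 1.02 CPM, and stem cells 1 to 4 at 15.9, 24.5, 3.38 and 0.557 CPM. Astrocytes b and c held as much Bcas1 as progenitors c and d, and astrocyte d held almost none. Progenitors were clear of stem cells, with a log2 fold change of 3.0 ± 0.86 (SE, n = 4 against 4). Astrocytes overlapped progenitors (-0.48 ± 1.05) and stem cells (2.53 ± 1.43). Of the exonic length of Bcas1, 12.6% lies opposite the antisense genes Bcas1os1 and Bcas1os2, so part of its reads could belong to them.

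Myelin transcripts varied across the same astrocyte libraries, and their part in the Bcas1 values was not tested. Mobp, a structural gene of compact myelin, stood at 336, 578, 327 and 116 CPM in astrocytes a to d. Mbp, which encodes myelin basic protein, stood at 2135, 629, 240 and 51.9 CPM. Mbp thus had its highest value in astrocyte a, where Bcas1 was at 14.9 CPM, while Mobp had its highest in astrocyte b, where Bcas1 was also highest.

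ELMO1 works with DOCK family proteins to activate the small GTPase RAC1, which drives the cytoskeleton in cell shape change and phagocytosis. Elmo1 (ENSMUSG00000041112.15, chromosome 13, 20090596 to 20608353, plus strand) stood at 135, 146, 119 and 110 CPM in progenitors a to d. Astrocytes a to d were at 3.83, 0.365, 5.14 and 0 CPM and stem cells 1 to 4 at 0.103, 0.261, 0.250 and 0 CPM. It had the least variation among progenitors of the 8 members with counts there, with the highest library 1.33 times the lowest. The log2 fold change of progenitors over stem cells was 9.48 ± 0.50 (SE, n = 4 against 4), or 789 times the scaled counts (95% interval 338 to 2431). The stem cell side rested on 5 counts in all, with no library above 2, and the log2 value ran from 6.80 to 12.40 over the other settings, scalings and pseudocounts tried. Astrocytes over progenitors came to -5.76 ± 1.23, and this call was lost without progenitor c.

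The type 2 inositol trisphosphate receptor, encoded by Itpr2, releases calcium from the endoplasmic reticulum and is also the main isoform of astrocytes. Itpr2 (ENSMUSG00000030287.15, chromosome 6, 146108299 to 146502223, minus strand) stood at 1006, 775, 1039 and 877 CPM in astrocytes a to d. Progenitors a to d were at 278, 253, 377 and 272 CPM and stem cells 1 to 4 at 393, 345, 493 and 330 CPM. It was the only member abundant in all 3 cell types and the only one highest in astrocytes, whose libraries overlapped neither other group. Astrocytes exceeded progenitors by a log2 fold change of 1.65 ± 0.24 (SE, n = 4 against 4) and stem cells by 1.24 ± 0.25. Progenitors and stem cells overlapped, at -0.44 ± 0.19.

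**Figure D1:**
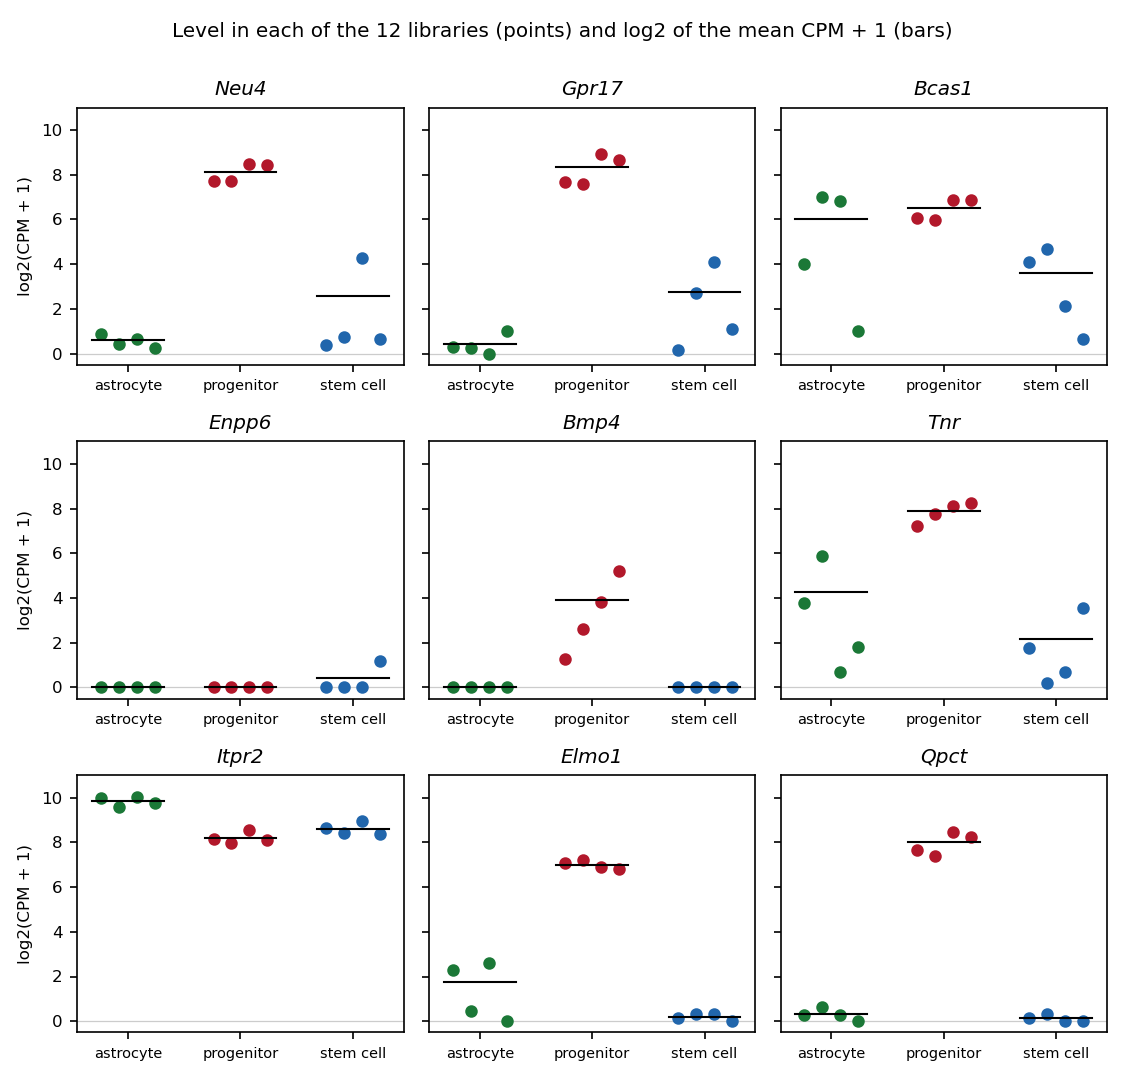
Level of each of the 9 members in the 12 libraries. The vertical axis is log2(CPM + 1), points are single libraries in the order given in the text, and bars mark the log2 of the mean CPM + 1 of the 4 libraries of a cell type. Neu4, Gpr17, Tnr, Elmo1 and Qpct form a high cluster in progenitors, Bmp4 is spread from 1.44 to 36.0 CPM in progenitors with all other libraries at 0, Itpr2 is highest in astrocytes, and Enpp6 is at 0 outside stem cell 4.

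Of the 9 members, 8 passed the count filter in astrocytes against progenitors, 8 in progenitors against stem cells and 3 in astrocytes against stem cells. Enpp6 passed in none. Since these contrasts also informed the choice of members, the counts that follow are a description from which nothing is read. In progenitors over stem cells, 6 members were called higher in progenitors by edgeR's quasi-likelihood test across all genes (Neu4, Gpr17, Bmp4, Tnr, Elmo1 and Qpct) and 0 were called higher in stem cells, where the shares of all 15427 genes tested were 4.95% and 3.66%. The libraries of 7 members did not overlap with progenitors higher, as for 11.8% of genes tested. In astrocytes over progenitors, 5 members were called higher in progenitors (Neu4, Gpr17, Bmp4, Elmo1 and Qpct) and 1, Itpr2, higher in astrocytes, where the shares of all 14806 genes were 6.18% and 2.45%. In that contrast, 6 members had progenitor libraries above every astrocyte library, as for 15.2% of genes.

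In astrocytes over stem cells, 0 of the 3 members tested were called by edgeR, 1 had an unadjusted p under 0.05 (9.55% of all genes did) and DESeq2 called 1. This was Itpr2 in each case. Few genes of any kind were called in that contrast, at 0.0468% of 12831.

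**Figure D2:**
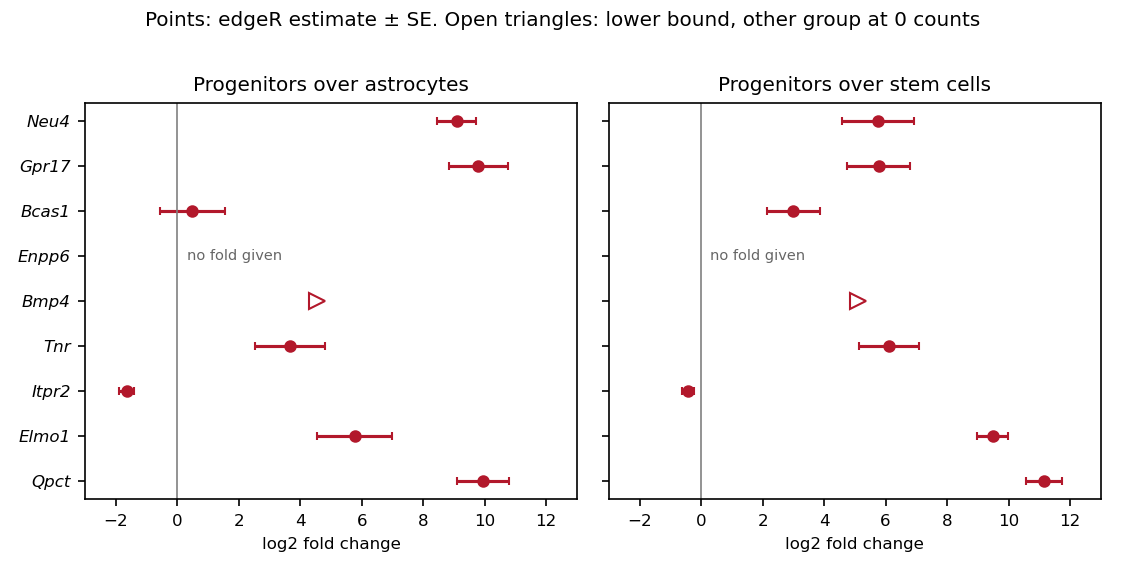
Log2 fold changes of the members, with progenitors over astrocytes on the left and progenitors over stem cells on the right. Points with bars are edgeR estimates with their standard errors from 4 libraries against 4, and open triangles are the lower bounds for Bmp4 against groups with 0 counts. Itpr2 lies below 0 on both sides, Bcas1 spans 0 against astrocytes, and the other members with a value lie between 3.0 and 11.15.

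Among progenitors, the members were ordered per kilobase of exon, the scale on which levels of different genes can be set side by side. Qpct was highest at 100.0 ± 34.1 CPM per kb (SD, n = 4), followed by Gpr17 at 61.9 ± 28.0 and Neu4 at 60.2 ± 17.4. These 3 overlapped each other in order, and a gap separated Neu4 from the next gene. Bcas1 at 24.0 ± 8.26, Itpr2 at 19.9 ± 3.75, Tnr at 18.2 ± 5.39 and Elmo1 at 10.1 ± 1.29 each overlapped the next in their library ranges. Bmp4 followed at 6.21 ± 6.91, and its libraries did not overlap with Enpp6, which closed the order at 0. The exon lengths are those of GENCODE M21, in which Qpct, Elmo1 and Bmp4 carry a later version of their identifier than in the counted annotation, so their places in the order are less certain.

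The 4 progenitor libraries differed among themselves in a way that ran across most of the members. The levels of 6 of the 8 members with counts were highest in progenitors c and d, with Itpr2 and Elmo1 as the exceptions. Gpr17 in c and d was at 1.52 and 1.24 times its own progenitor mean against 0.640 and 0.602 in a and b. Qpct was at 1.38 and 1.18 against 0.782 and 0.651. Of the 12888 genes with at least 5 CPM on average in progenitors, 17.9% had c and d as their 2 highest libraries. This split was noticed in these libraries and was given no test.

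The lists of the oligodendrocyte lineage differed in this respect. Progenitors c and d were the highest libraries for 9 of 10 precursor identity genes and 2 of 4 genes of O4 and O1 lipid synthesis. The number was 3 of 8 for lineage transcription factors, 3 of 13 for the other genes of committed precursors and newly formed oligodendrocytes, and 1 of 6 for myelin genes. It was 0 of 8 for neuronal lineage markers and 0 of 7 for astrocyte markers. Mural cell markers, which cover pericytes and vascular smooth muscle, summed to 39.4 CPM in progenitor b and 2083, 2100 and 912 CPM in a, c and d. In a, the sum included 842 CPM of Acta2, which was at 0.554 CPM in c. Vtn stood at 944, 1.25, 1517 and 782 CPM in a to d. Rgs5 and Kcnj8 were also highest in c, and Pdgfrb was highest in a. The part of mural transcripts in the member values was not tested.

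**Figure D3:**
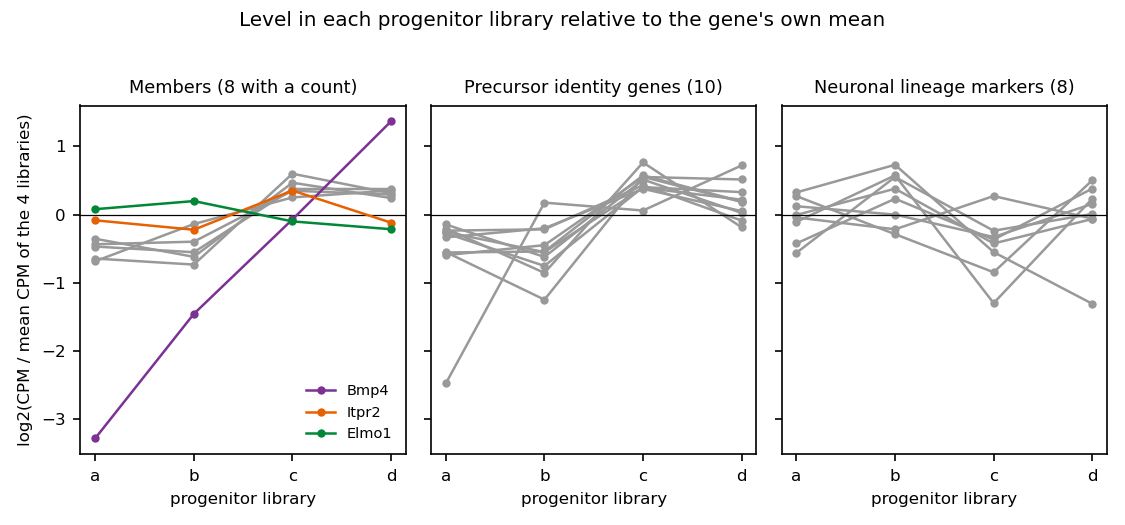
Level in each progenitor library relative to the gene's own mean over the 4, as a log2 ratio, for the members, the precursor identity genes and the neuronal lineage markers. Lines join the libraries of a gene for legibility and the libraries have no order. Most members and precursor genes lie above 0 in c and d, Bmp4 has the widest range with a ratio of 25.0 between d and a, and Elmo1 and Itpr2 stay close to 0.

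The other genes of the oligodendrocyte lineage were read from lists drawn up for this comparison with earlier results known, and each is described by its counts. Genes named from these and the later lists are mostly the called ones with the largest changes. Their adjusted p-values come from the fits of all genes, are given as a description and are no separate support. The lists put 54 genes in the table. In progenitors over stem cells edgeR called 15 of the 45 tested higher in progenitors and 0 higher in stem cells, where the shares of all genes were 4.95% and 3.66%. DESeq2 called 19 higher in progenitors and 3 higher in stem cells. The count filter can be met by the 4 progenitor libraries alone, and 2 were called when every library needed 10 counts. In astrocytes over progenitors, 16 of the 40 tested were higher in progenitors and 1 in astrocytes, where the shares were 6.18% and 2.45%. The same shares stand beside the called counts of each list below. In astrocytes over stem cells edgeR called 0 of 24 and DESeq2 called 1. In that contrast 1 gene had an unadjusted p under 0.05 on the newly formed oligodendrocyte list and 2 on the myelin list. Of all genes tested there, 9.55% did.

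**Figure D4:**
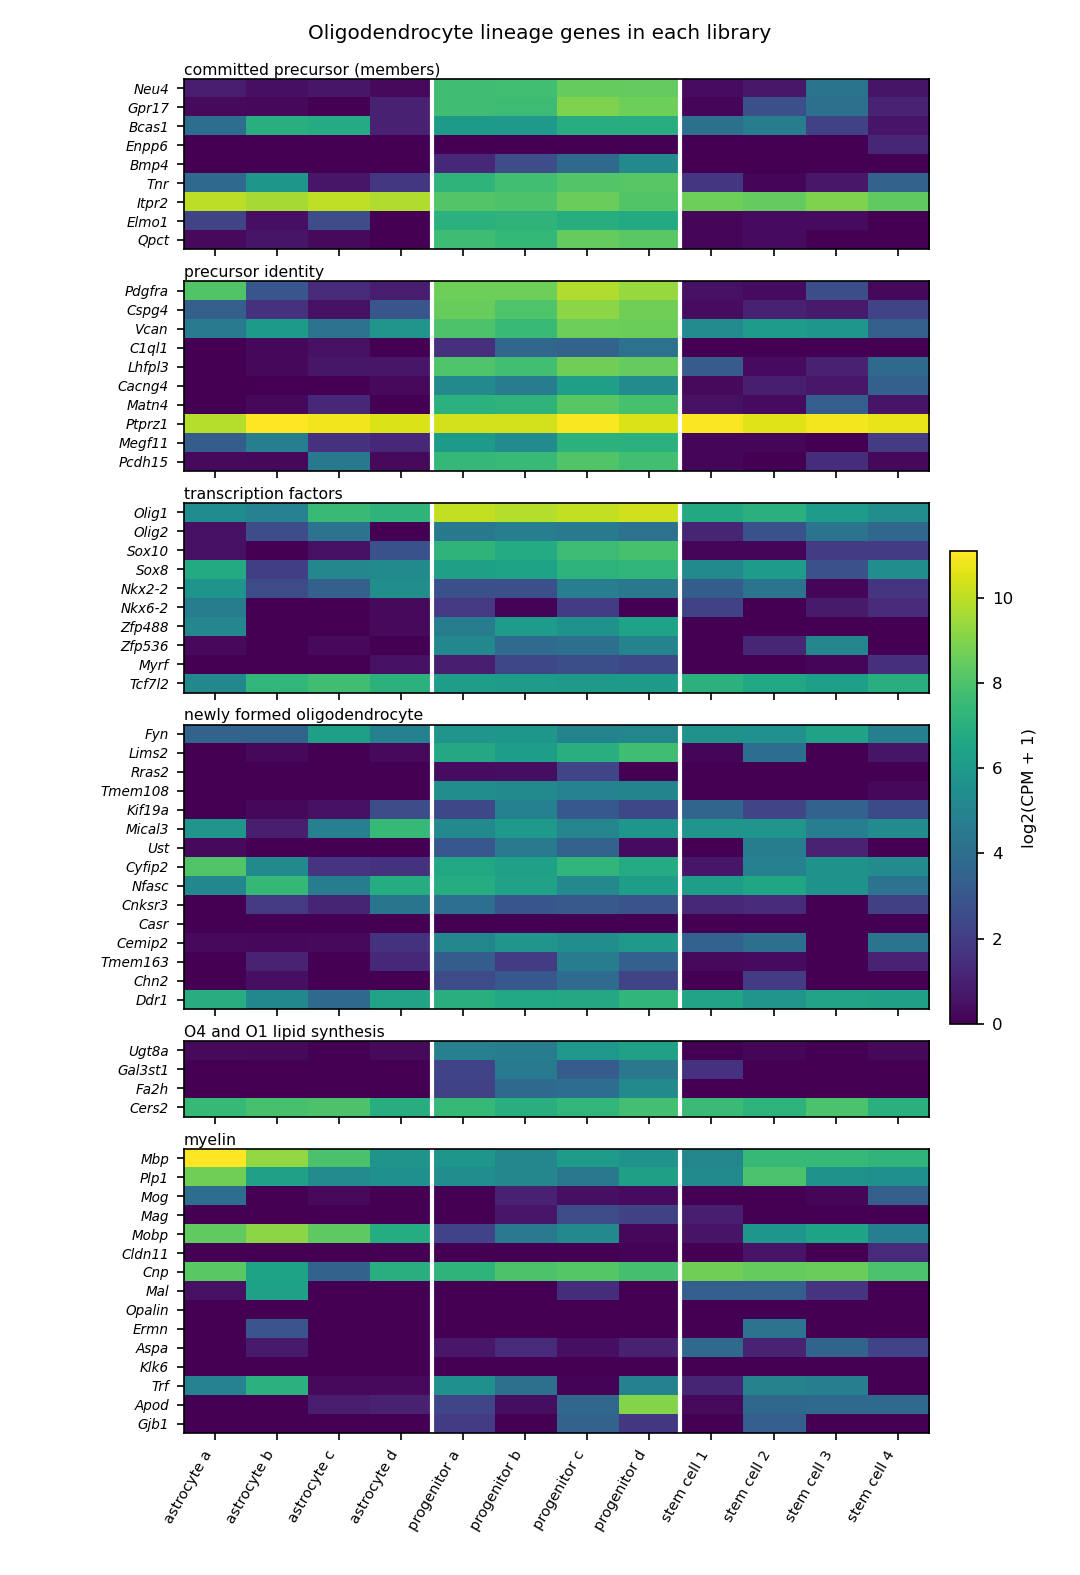
Genes of the oligodendrocyte lineage in the 12 libraries, as log2(CPM + 1) in colour, grouped from top to bottom into the 9 members, precursor identity, transcription factors, newly formed oligodendrocyte genes, lipid synthesis enzymes and myelin genes. White lines separate astrocytes, progenitors and stem cells. Most genes of the first 3 blocks are brightest in the 4 progenitor columns, with Itpr2 and Ptprz1 bright throughout, whereas the myelin block is not, with Mbp brightest in astrocyte a at 2135 CPM.

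Precursor identity genes were mostly high in progenitors. Of the 10, 8 rose in progenitors over stem cells and 6 were higher in progenitors than in astrocytes. Their median log2 fold change over stem cells was 6.0, where all genes tested had a median of 0.04. Neuronal lineage markers rose in that contrast too, with 7 of 8 called and a median of 5.58. Lhfpl3, which encodes a tetraspan membrane protein, averaged 308 CPM in progenitors, 5.64 CPM in stem cells and 0.347 CPM in astrocytes (log2 fold change over stem cells 5.75 ± 0.93, Benjamini-Hochberg adjusted p = 0.0052 by edgeR). Matn4, a matrilin of the extracellular matrix, rose by 6.25 ± 1.04 (adjusted p = 0.0059). Pdgfra, the growth factor receptor of dividing precursors, stood at 396, 400, 866 and 664 CPM in progenitors a to d. Astrocyte a held 270 CPM of Pdgfra where the other 3 astrocyte libraries were at 6.76 CPM or less. Genes of the earlier stage were therefore high in the same 4 libraries as the committed-stage members.

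Transcription factors of the lineage were called less evenly. Of 9 tested, 3 rose over stem cells and 3 stood higher in progenitors than in astrocytes. Sox10, the factor that drives the myelin programme with Myrf, averaged 171 CPM in progenitors and 1.52 CPM in stem cells (log2 fold change 6.83 ± 0.89, adjusted p = 0.0020 by edgeR with Benjamini-Hochberg adjustment). Olig1 rose by 3.60 ± 0.32 (adjusted p = 0.00036). Other factors on the list were not called and did not run this way: Tcf7l2 averaged 67.3 CPM in progenitors, 109 CPM in stem cells and 136 CPM in astrocytes, and Nkx2-2 averaged 14.3 CPM in progenitors and 27.7 CPM in astrocytes. Zfp488, an oligodendrocyte zinc finger protein, was at 0 in every stem cell library and at least 139-fold higher in progenitors. Its progenitor and astrocyte libraries overlapped, with 34.5 CPM in astrocyte a and 24.2 CPM in progenitor a. For Zfp536, astrocytes over progenitors came to -7.71 ± 1.43 (adjusted p = 0.016), while stem cell 3, the library with the most Neu4 and Gpr17 among stem cells, held 32.3 CPM of Zfp536.

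The remaining genes of committed precursors and newly formed oligodendrocytes were divided. Of these, 4 of the 12 tested were higher in progenitors than in astrocytes and 2 of 13 rose over stem cells. Lims2, an adaptor of integrin signalling and the gene opposite Gpr17, averaged 124 CPM in progenitors and 0.0967 CPM in astrocytes (astrocytes over progenitors -10.10 ± 1.07, adjusted p = 0.0012 by edgeR). Tmem108 was at 0 in all astrocyte libraries and at least 58.9-fold higher in progenitors, and it rose by 9.51 ± 1.02 over stem cells (adjusted p = 0.00080). Cemip2 and Chn2 completed the 4 in astrocytes over progenitors, at -6.18 ± 1.21 and -6.08 ± 1.46.

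The enzymes that make the lipids of the O4 and O1 gate were measured because O4-positive and O1-positive cells had been removed. Ugt8a, the galactosyltransferase that makes galactocerebroside, stood at 27.4, 24.7, 58.7 and 79.3 CPM in progenitors a to d, and rose by 9.17 ± 0.98 over stem cells (adjusted p = 0.00080 by edgeR). Fa2h, which hydroxylates the fatty acids of these lipids, was at 3.43, 13.3, 15.2 and 39.0 CPM in progenitors and at 0 in the other 8 libraries, a rise of at least 43.5-fold over stem cells. Gal3st1, the sulfotransferase that makes sulfatide, averaged 13.8 CPM in progenitors and was at 0 in astrocytes, with an adjusted p of 0.017 by edgeR, and over stem cells it came to 4.69 ± 1.62 (adjusted p = 0.12). Cers2, a ceramide synthase, averaged 169 CPM in progenitors, 176 CPM in stem cells and 193 CPM in astrocytes. Thus 3 of the 4 enzymes were higher in progenitors than in astrocytes, and 2 of the 4 were higher than in stem cells.

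Myelin genes, which follow later in the lineage, were not called higher in progenitors. Of 15 in the table, 9 were tested in progenitors over stem cells, and edgeR called 0 in either direction. Their median log2 fold change was -1.15, lower in progenitors. Of the 9, 3 had an unadjusted p under 0.05, as did 21.2% of all genes tested. In astrocytes over progenitors, Mbp was called higher in astrocytes at a log2 fold change of 3.85 ± 0.92 (adjusted p = 0.026 by edgeR), with astrocyte d, at 51.9 CPM, inside the range of progenitors. Apod, a lipocalin of mature oligodendrocytes, was at 520 CPM in progenitor d and at 11.6 CPM or less in progenitors a to c.

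Close relatives of the members were compared to see which family member each cell type held. Of 26 in the table, 1 of the 16 tested rose in progenitors over stem cells, where 4.95% of all genes did. In the other contrast, 1 of the 14 tested was higher in progenitors than in astrocytes, where 6.18% of all genes were. Enpp2, which makes lysophosphatidic acid, stood at 207, 296, 407 and 425 CPM in progenitors a to d, where Enpp6 was at 0. It rose by 2.79 ± 0.56 over stem cells (adjusted p = 0.013 by edgeR). Bmp7 averaged 21.2 CPM in progenitors and astrocytes over progenitors came to -8.36 ± 1.55 (adjusted p = 0.016). Neu1, the lysosomal sialidase, averaged 66.0 CPM in progenitors, 66.0 CPM in stem cells and 94.0 CPM in astrocytes, where astrocyte a was at 279 CPM and the mean without it was 32.3 CPM. It was not called in either comparison with progenitors. Elmo2 was at 108 CPM in progenitors and 127 CPM in stem cells (-0.27 ± 0.39, adjusted p = 0.78). Itpr1, the neuronal isoform of the calcium channel, averaged 28.7 CPM in progenitors and 95.0 CPM in astrocytes, and its astrocyte libraries ran from 7.56 to 297 CPM.

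Other relatives past 20 CPM were not called in either comparison with progenitors. These were Neu3, P2ry12, P2ry14, Enpp4, Enpp5, Tnc and Tnxb.

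Partners and antagonists of the member proteins gave 2 genes higher and 2 lower in progenitors over stem cells, of 15 tested. Cntn1, a cell adhesion protein that binds tenascin R, rose by 1.90 ± 0.42 (adjusted p = 0.020 by edgeR) and was also higher than in astrocytes, at -2.35 ± 0.55 for astrocytes over progenitors (adjusted p = 0.024). Acan, a proteoglycan bound by tenascin R, was at 0 in the other cell types and at least 12.3-fold higher than in stem cells. Bmpr1b, a receptor for BMP ligands, fell by 1.29 on the log2 scale (SE 0.23, adjusted p = 0.0087), from 158 CPM in stem cells to 66.8 CPM in progenitors. Hapln1, a link protein of the matrix, fell by 1.36 (SE 0.29, adjusted p = 0.017). The other BMP receptor genes on the list, Bmpr1a, Bmpr2 and Acvr1, were not called in this contrast. They averaged 17.6, 25.8 and 8.66 CPM in progenitors against 16.9, 40.2 and 35.0 CPM in stem cells. A relation of these receptor levels to Bmp4 was not tested.

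Genes nearest to the average pattern of the members over the 12 libraries were sought among 12880 genes with at least 5 CPM in progenitors. The measure was the mean absolute difference from the members' average standardised log2(CPM + 1). The 10 nearest were Fv1, Map3k9, Aldh1b1, Trav3n-3, Mycl, Pnlip, Gm47591, Mc5r, B3gnt5 and Pcsk2, at differences of 0.299 to 0.337 standard deviations. Except for Mycl at 46.9 CPM, Pcsk2 at 22.1 CPM and Pnlip at 16.7 CPM, they averaged 8.11 CPM or less in progenitors. Trav3n-3 is a T cell receptor segment with close copies, so its reads are uncertain. Every member with at least 5 CPM in progenitors lay farther from this average than these 10 genes, from 0.344 for Bmp4 to 1.18 for Itpr2. The 10 genes are thus near the average and need not be like any single member. Averaging members that differ, Itpr2 and Enpp6 among them, narrows the pattern, so the distance was also taken after standardising that average again, a choice made after seeing the first result. The 10 nearest were then at 0.171 to 0.197 and included Edil3, Ifitm10, Gjc3, Tmem255b, Ugt8a, Mctp1, Mycl, Adarb2 and Sez6. Of these 10, 1, Mycl, was also in the first 10. Gjc3, the connexin 29 gene of myelinating glia, averaged 186 CPM in progenitors, 1.17 CPM in astrocytes and 0.244 CPM in stem cells.

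Stem cell 3 held Neu4 and Gpr17 together with some precursor transcripts. Neu4 was at 18.5 CPM, Gpr17 at 16.1 CPM, Matn4 at 8.88 CPM and Pdgfra at 5.25 CPM there, while Qpct and Bmp4 were at 0 and Elmo1 was at 0.250 CPM. In the other 3 stem cell libraries Neu4 was at 0.652 CPM or less and Matn4 at 0.557 CPM or less. Pcdh15 also had its stem cell maximum in stem cell 3, at 1.75 CPM. Other precursor identity genes did not. Lhfpl3, Cacng4, Cspg4 and Megf11 were highest in stem cell 4, at 13.2, 9.66, 3.90 and 2.79 CPM. In stem cell 3 they were at 1.00, 0.625, 0.751 and 0 CPM. Vcan was highest in stem cell 2. Bcas1, at 3.38 CPM, and Tnr, at 0.625 CPM, were low in stem cell 3. Stem cell 3 held the stem cell maximum of 3 members and so did stem cell 2, against 2 in stem cell 4, and the library was singled out after its values were seen.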

How the data were processed

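RNA was measured in 12 mouse libraries of 50 sorted cells each, 4 per cell type. The authors trimmed reads, discarded matches to PhiX, mitochondrial DNA and ribosomal RNA, aligned what remained with HISAT2 2.0.6 to GRCm38.p4 and counted reads per GENCODE M14 gene with featureCounts in its unstranded mode. The deposited values are these raw counts, and gene names, exon lengths and positions came from GENCODE M21 (50376 of 50600 identifiers matched).

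Each pair of cell types was fitted with edgeR 4.0.16 (R 4.3.3): TMM scaling, a minimum of 10 counts in 4 or more of 8 libraries, the quasi-likelihood F test, and Benjamini-Hochberg adjustment over all genes tested, called at 0.05. No batch is given in the labels. The standard error was the size of the log2 fold change over the root of F. DESeq2 1.42.0, other filters and scalings, thinning to 1 depth, a fit of all 12 libraries and each library left out served as alternatives. The smallest chi-square per degree of freedom between libraries of 1 cell type was 52.5, so no library repeated another. Ratios of counts carry exact 95% intervals.

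The members and lists were chosen with earlier results of these data known. Named genes were the 9 members, up to 4 called genes per list by size of change, all genes of the sort and of lipid synthesis, relatives with a mean of at least 20 CPM in a cell type, and the 10 nearest in pattern. No deposited value column was left unused. Of the 10 nearest once the pattern was standardised again, 1 gene is not reported here.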

Additional observations from a re-analysis of the deposited data

Results flagged for a closer look

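In the 19 groups of 4 libraries whose highest member value was at least 1 CPM, the gap on the log2(CPM + 1) scale between the most extreme library and its nearest neighbour was divided by the range of the group, and 2 exceeded Dixon's 95% critical value. Chance passes it in about 1 of 20 groups if values are normally distributed, which need not hold for values near the floor. The members were also chosen with these values known, so the flags are a description. For Neu4 in stem cells the ratio was 0.914, since stem cell 3 held 18.5 CPM against 0.308, 0.652 and 0.557 CPM in the other 3. Gpr17 was also highest in stem cell 3, at 16.1 CPM, without exceeding the value. For Enpp6 in stem cells the ratio was 1, since stem cell 4 held 7 counts and the other 3 held 0. With 3 libraries tied at 0 the ratio is 1 by construction, so this value is no test.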

How the results depend on the processing

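The log2 fold changes of the members kept their sign under all the alternatives run. Of 275 alternative values for 17 fold changes, 249 stayed within the spread between replicates, 26 moved further and 0 reversed. The counts of calls depended more on the settings. Genes called in astrocytes over progenitors numbered 1278, with 2431 by DESeq2, 529 without a count filter and 287 when every library needed 10 counts. Progenitors over stem cells gave 1327, with 2394 by DESeq2 and 445 in a fit of all 12 libraries. Astrocytes over stem cells gave 6, with 635, 16, 12 and 343 by DESeq2, no filter, the filter on every library and the fit of all 12. Members called fell from 6 to 1 and from 6 to 0 in the contrasts with progenitors under the filter on every library, which drops genes near 0 in a cell type, and rose from 0 to 1 in astrocytes over stem cells by DESeq2 and in the fit of all 12. Other lineage genes called went from 17 to 3 and from 15 to 2 under that filter. By DESeq2 they numbered 22 in each contrast with progenitors, with 2 higher in astrocytes and 3 higher in stem cells. In astrocytes over stem cells they went from 0 to 1 by DESeq2. With each library left out in turn, the 3 contrasts in the same order gave 719 to 1871, 830 to 1383 and 0 to 8 genes, 4 to 7, 6 to 7 and 0 to 0 members, and 12 to 19, 14 to 17 and 0 to 0 other lineage genes. The first fell to 719 without progenitor c and 794 without progenitor d, the second to 830 without progenitor d, and the third to 3, 0 and 0 without stem cells 1, 3 and 4. In astrocytes over progenitors, Bmp4 lost its call without progenitor b, c or d and Elmo1 without progenitor c, while Tnr gained one without astrocyte b and by DESeq2. In progenitors over stem cells, Bcas1 gained a call without stem cell 2 or 4 and by DESeq2. Scaling to total counts in place of TMM shifted the median of all genes by -0.42, 0.27 and -0.17 on the log2 scale in the 3 contrasts. No paired analysis was possible because the astrocyte and progenitor columns carry no replicate numbers. With 4 libraries of 50 cells per cell type, and near-0 counts for most members outside progenitors, fold changes have wide errors. A transcript at 0 was only not detectable at this depth, and the study described astrocyte cDNA quality as suboptimal. The chi-square per degree of freedom between libraries was 133 to 229 in astrocytes. It was at most 73.8 in progenitors and at most 81.1 in stem cells.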
